A study of Ovis aries with 12 samples.

Results

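A set of 9 genes of the extracellular matrix and of TGF beta signalling were followed across sheep right ventricle: the protease inhibitors TIMP1 and TIMP3, the serpin SERPINF1, the proteases MMP2 and PLAU, the proteoglycan BGN, the growth factor TGFB1, the convertase FURIN and the integrin subunit ITGB6. They were taken by name from the deposited count table, in which each has 1 row, so they are 9 of 27054 rows. All 9 passed the filter on low counts, among 13065 genes tested, of which 479 carried a symbol. The tissue was the free wall of the right ventricle, snap frozen, from 3 groups of lambs with 4 libraries each. The fetal group was taken before birth. The control group was 4 to 6 weeks old. The shunt group was of the same age range and had received, in fetal surgery, a graft from the aorta to the pulmonary artery, which loads the right ventricle with pressure. The sources used here do not give breed, sex or gestational age. They also do not tie libraries to separate animals, so a p-value reflects only how far these libraries differ from one another, and part of that may be technical.

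The extracellular matrix of the heart holds collagens, proteoglycans and adhesive proteins, laid down mostly by fibroblasts. Matrix metalloproteinases (MMPs) and the plasmin system cut it, and tissue inhibitors of metalloproteinases (TIMPs) block the MMPs. TGF beta is secreted in a latent form. FURIN cuts its precursor, and integrins, of which alpha v beta 6 is one, release the active factor, which raises matrix synthesis in fibroblasts. In the ventricle some of these genes are known for their part in growth of the matrix after birth and in fibrosis under load.

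Total counts per library ranged from 19111348 to 44946875. Levels are given as CPM, counts scaled to a common library size, after TMM scaling, which sets the bulk of genes level between libraries. Counts of the 13 mitochondrially encoded protein genes made up 26.7% to 41.2% of fetal libraries, 43.5% to 50.0% in controls, and 72.6%, 71.4%, 54.6% and 45.6% in shunt 1 to shunt 4. Shunt 1 and shunt 2 stand apart in this respect, with 7152139 and 7140136 counts left for all other genes, and results are given without them where that ends a call. The cardiomyocyte markers present in the table, 7 of 29 on the list, summed to 20188 CPM or more in each of the 12 libraries. In pieces of whole tissue, fewer cells of a type and less RNA per cell cannot be told apart.

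**Figure D1:**
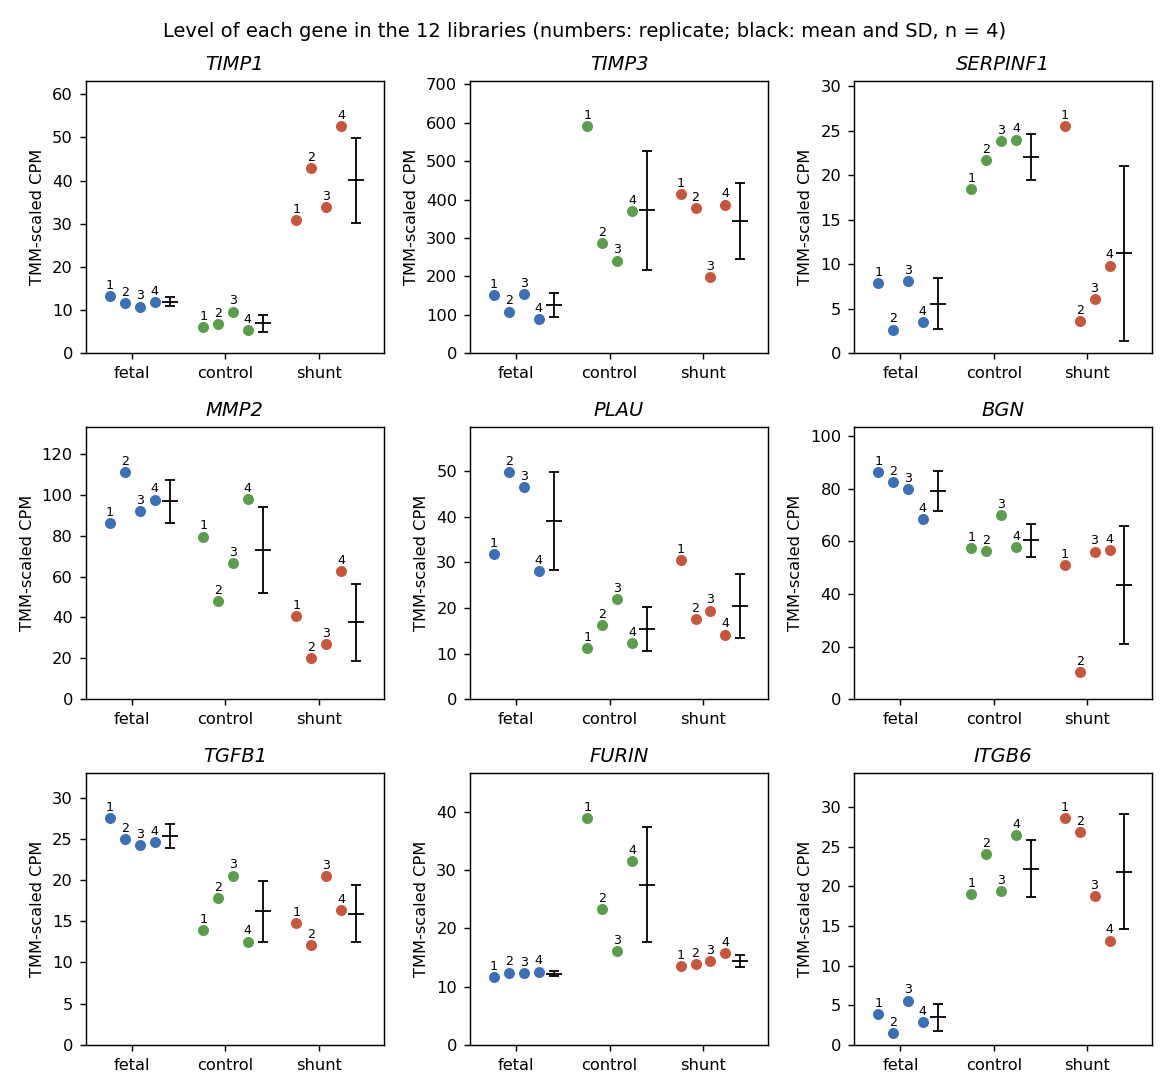
Level of each of the 9 genes in TMM-scaled CPM (vertical axes from 0) in fetal, control and shunt libraries. Points are single libraries labelled by replicate number and black bars are the mean and SD of 4. TIMP1 in shunt libraries, at 30.8 to 52.5 CPM, lies above every other library, and ITGB6 in fetal libraries, at 5.58 CPM or less, lies below every other library.

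TIMP1 (ENSOARG00000013157) encodes a secreted inhibitor of most MMPs. It stood at 13.3, 11.7, 10.8 and 11.8 CPM in fetal 1 to fetal 4. The control libraries were at 6.10, 6.70, 9.65 and 5.29 CPM, and the shunt libraries at 30.8, 42.8, 33.9 and 52.5 CPM. The 3 groups did not overlap, with shunt highest and control lowest, and the lowest shunt value was above the highest value of any fetal or control library. Raw counts behind these values ran from 146 to 566 in fetal and control libraries and from 451 to 1402 in shunt libraries. From control to shunt TIMP1 rose by 2.53 on the log2 scale (SE 0.228, adjusted p = 0.000209 by edgeR), which was the smallest p of the 13065 genes tested. It ranked first under 20 of 22 other settings of the analysis and no lower than 5 under the others. It stayed called under all 22, with adjusted p from 9.41e-23 to 0.0405 and log2 changes from 1.98 to 2.73.

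TIMP1 was also higher in shunt than in fetal libraries, by 1.75 (SE 0.221, adjusted p = 0.000527), and higher by 1.85 without shunt 1 and shunt 2 (adjusted p = 0.000745). Scaling by library totals alone took this difference to 0.76 (adjusted p = 0.0589, against a range of 1.67e-11 to 0.0589 over all 22 settings). Between fetal and control libraries the log2 change was -0.78 (SE 0.219, adjusted p = 0.053), just outside the threshold of 0.05. That value passed in 10 of the 22 settings, among them without control 3 (-0.98, adjusted p = 0.0243) and without shunt 1, shunt 3 or shunt 4 (adjusted p = 0.037, 0.0475 and 0.038), over a range of 0.0175 to 0.189.

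TIMP3 (ENSOARG00000018210) encodes the inhibitor that stays bound to the matrix and also blocks ADAM proteases. Its fetal libraries were at 151, 109, 154 and 89.5 CPM. The controls were at 590.45, 286, 241 and 369.8 CPM and the shunt libraries at 414.5, 378, 199 and 386.8 CPM. All fetal values lay below all others, while control and shunt values interleaved. TIMP3 rose from fetal to control by 1.57 (SE 0.308, adjusted p = 0.0106) and was higher in shunt than in fetal libraries by 1.46 (SE 0.307, adjusted p = 0.0076). Shunt against control stood at -0.11 (SE 0.301, adjusted p = 0.842), with a sign that turned without control 1 (0.20) or shunt 3 (0.08). Both calls were lost with library totals (adjusted p = 0.0579 and 0.294), and the second also without shunt 1 and shunt 2 (1.22, adjusted p = 0.0607). In the human genome TIMP1 and TIMP3 each lie within an intron of a synapsin gene on the other strand, and the sources used here do not say whether counting used strand.

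SERPINF1 (ENSOARG00000014232) encodes pigment epithelium-derived factor, a secreted serpin that binds collagen, slows vessel growth and inhibits no known protease. Its levels were 7.91, 2.66, 8.09 and 3.52 CPM in fetal libraries. They were 18.5, 21.7, 23.9 and 23.99 CPM in controls, and 25.5, 3.61, 6.08 and 9.85 CPM in shunt 1 to shunt 4. The control libraries lay close together and above all fetal ones. The shunt group spanned both, with shunt 1 above every control and shunt 2 to shunt 4 below every control. SERPINF1 rose from fetal to control by 1.99 (SE 0.510, adjusted p = 0.0385). That call is weakly held: it was lost in 11 of 22 settings, including each single control left out (adjusted p = 0.0692, 0.0764, 0.0705 and 0.1 for control 1 to control 4), fetal 1, fetal 2 or fetal 4 left out (0.0675, 0.112 and 0.11), and shunt 4 left out (0.052). Shunt against control was -0.97 (SE 0.496, adjusted p = 0.216) and shunt against fetal 1.02 (SE 0.503, adjusted p = 0.176). Without shunt 1 these values were -1.74 (adjusted p = 0.0658) and 0.25 (adjusted p = 0.695).

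MMP2 (ENSOARG00000018035) encodes gelatinase A, which cuts basement membrane collagen and denatured collagen. It stood at 86.3, 111, 92.2 and 97.7 CPM in fetal libraries. Controls were at 79.6, 47.9, 66.6 and 97.9 CPM, and shunt libraries at 40.5, 20.3, 27.1 and 62.9 CPM. Fetal and shunt values did not overlap, and control values spread across the gap between them and into both. MMP2 was lower in shunt than in fetal libraries, with a log2 change of -1.36 (SE 0.304, adjusted p = 0.00993). Without shunt 1 and shunt 2 this was -1.11 and not called (adjusted p = 0.061, in a range of 0.000432 to 0.061). Neither neighbouring step passed: control against fetal was -0.41 (SE 0.298, adjusted p = 0.514) and shunt against control -0.95 (SE 0.301, adjusted p = 0.0723). The latter passed with DESeq2's Wald test (adjusted p = 0.0281) and without shunt 4 (-1.32, adjusted p = 0.00991), over a range of 0.00991 to 0.313.

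PLAU (ENSOARG00000008473) encodes urokinase, which turns plasminogen into plasmin. It stood at 31.8, 49.7, 46.5 and 28.1 CPM in fetal libraries. Control libraries were at 11.3, 16.3, 21.9 and 12.2 CPM and shunt libraries at 30.5, 17.5, 19.4 and 14.2 CPM. All controls lay below all fetal libraries, and shunt 1 alone among the shunt libraries reached the fetal range. PLAU fell by 1.34 on the log2 scale from fetal to control (SE 0.280, adjusted p = 0.0137), a call lost without fetal 2 (adjusted p = 0.0539) or control 4 (adjusted p = 0.0578). It was lower in shunt than in fetal libraries, with a log2 change of -0.94 (SE 0.279, adjusted p = 0.0355). That call was lost without fetal 1, fetal 2 or fetal 3 (adjusted p = 0.0564, 0.104 and 0.084), without shunt 2 or shunt 4 (0.0833 and 0.0619), and with the 2 groups fitted alone (0.0614). Shunt against control was 0.40 (SE 0.278, adjusted p = 0.355), or -0.25 with library totals.

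Ratios of raw counts within a library do not depend on how libraries are scaled, and show how the inhibitors moved against the protease. They compare libraries, not the levels of 2 genes, since counts also grow with transcript length. For every 100 MMP2 counts there were 10.5 to 15.4 TIMP1 counts in fetal libraries and 5.40 to 14.5 in controls. Shunt libraries had 76.1, 211, 125 and 83.6 in shunt 1 to shunt 4, so each was several times above the highest of the other 8. For every 100 TIMP3 counts, TIMP1 had 7.04 to 13.2 counts in fetal, 1.03 to 4.00 in control and 7.43 to 17.04 in shunt libraries. By this ratio controls lay below both other groups, and fetal and shunt libraries overlapped. TIMP3 per 100 MMP2 counts rose stepwise, from 91.5 to 175 in fetal, through 362 to 741 in control, to 615 to 1866 in shunt libraries, with an overlap of control and shunt. These ratios were picked with the values known and carry no test.

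**Figure D2:**
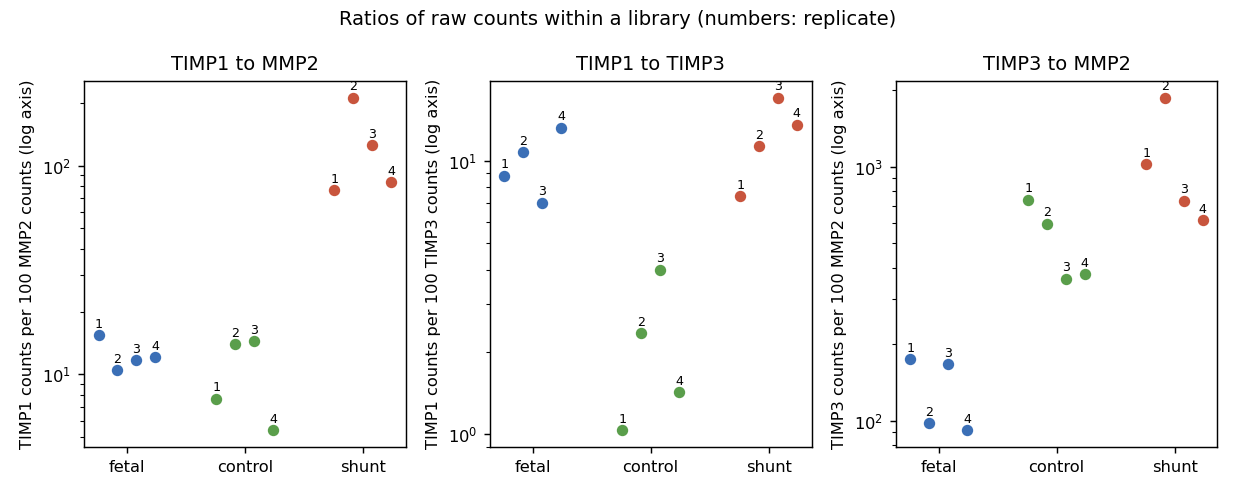
Ratios of raw counts within each library on log axes: TIMP1 per 100 MMP2 counts, TIMP1 per 100 TIMP3 counts and TIMP3 per 100 MMP2 counts. Points are single libraries labelled by replicate number. In the first panel the 4 shunt libraries lie at 76.1 to 211 and the other 8 at 15.4 or below, and in the second the 4 controls lie lowest, at 4.00 or below.

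BGN (ENSOARG00000007656) encodes biglycan, a small proteoglycan that binds collagen and TGF beta. It was at 86.3, 82.5, 79.9 and 68.6 CPM in fetal libraries, and at 57.5, 56.3, 69.9 and 57.9 CPM in controls. Shunt 1, shunt 3 and shunt 4 were at 50.9, 56.2 and 56.6 CPM, and shunt 2 was far below them at 10.2 CPM, or 116 raw counts. With all libraries in the model edgeR called no comparison. Control against fetal was -0.39 (SE 0.357, adjusted p = 0.612), shunt against control -0.47 (SE 0.358, adjusted p = 0.404) and shunt against fetal -0.86 (SE 0.359, adjusted p = 0.112). One library, shunt 2, sets much of the size and error of the shunt values. Without shunt 2, shunt against control was -0.16 (adjusted p = 0.561), and shunt against fetal was -0.55 and passed the test (adjusted p = 0.0373, in a range of 0.00821 to 0.204). It also passed without shunt 1 and shunt 2 (-0.51, adjusted p = 0.047) and with library totals (-1.76, adjusted p = 0.00821). Control against fetal passed with the 2 groups fitted alone (-0.39, adjusted p = 0.0466) and without shunt 1 and shunt 2 (-0.39, adjusted p = 0.0492). Shunt 2 also had the second highest mitochondrial share, 71.4%, beside 72.6% in shunt 1, in which BGN was at 50.9 CPM. The part of that share in the low value was not tested.

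TGFB1 (ENSOARG00000007468), the growth factor itself, stood at 27.5, 24.97, 24.3 and 24.6 CPM in fetal libraries. It was at 13.9, 17.8, 20.5 and 12.5 CPM in controls and at 14.8, 12.2, 20.5 and 16.4 CPM in shunt libraries. The fetal libraries were tightly grouped and above all others, while the means of both postnatal groups, 16.2 ± 3.66 and 15.9 ± 3.49 CPM (SD, n = 4), were close. TGFB1 was lower in shunt than in fetal libraries, with a log2 change of -0.66 (SE 0.200, adjusted p = 0.037). The value for control against fetal was nearly as large at -0.65 (SE 0.199, adjusted p = 0.078) but did not pass. Shunt against control was -0.02 (SE 0.200, adjusted p = 0.964). The shunt against fetal call was lost in 10 of 22 settings, with a range of 0.00233 to 0.157. It was lost without any single fetal library (adjusted p = 0.0973, 0.0729, 0.062 and 0.0795), without control 2 (0.0501), and without shunt 1 or shunt 2 (0.0698 and 0.0899) or both (-0.48, adjusted p = 0.157). The others were the fit of the 2 groups alone (0.0614) and the replicate block (0.0503). The control against fetal value, in turn, passed with DESeq2 (adjusted p = 0.0252), with the 2 groups fitted alone (0.0192) and without shunt 1 and shunt 2 (0.0212), in a range of 0.0192 to 0.25.

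FURIN (ENSOARG00000012778) encodes the convertase that cuts pro-TGF beta and also activates the membrane protease MMP14. Fetal libraries were at 11.6, 12.4, 12.3 and 12.6 CPM and shunt libraries at 13.5, 13.9, 14.4 and 15.8 CPM. Controls were higher and spread more widely, at 39.0, 23.4, 16.1 and 31.5 CPM. The 3 groups did not overlap, with control highest and fetal lowest. The SD was 0.409 CPM in fetal and 0.981 CPM in shunt libraries against 9.91 CPM in controls. FURIN rose from fetal to control by 1.17 (SE 0.226, adjusted p = 0.00951), a call lost only with library totals among the 22 settings (0.78, adjusted p = 0.167). It was lower in shunt than in control libraries, with a log2 change of -0.93 (SE 0.226, adjusted p = 0.0428). That call was lost in 12 of 22 settings, with a range of 0.00517 to 0.151. These include each single fetal library left out (adjusted p = 0.0602, 0.0619, 0.0608 and 0.0606), control 1, control 2 or control 4 (0.114, 0.109 and 0.142), and shunt 1, shunt 2 or both (0.0794, 0.0929 and 0.151, the last at -0.89). The FURIN call was also lost with the 2 groups fitted alone (0.126). Shunt against fetal was 0.24 (SE 0.225, adjusted p = 0.484), or -0.76 with library totals.

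ITGB6 (ENSOARG00000006967) encodes the beta subunit of the integrin that binds latent TGF beta and is best known from epithelia. It had 3.89, 1.53, 5.58 and 2.84 CPM in fetal libraries, from 165, 47, 127 and 97 raw counts. Controls were at 19.03, 24.02, 19.4 and 26.5 CPM and shunt libraries at 28.6, 26.9, 18.8 and 13.1 CPM. Each postnatal library was above each fetal one, and the shunt libraries spanned the control range on both sides. ITGB6 rose from fetal to control by 2.69 (SE 0.347, adjusted p = 0.000973) and stood higher in shunt than in fetal libraries by 2.66 (SE 0.347, adjusted p = 0.000709). Both stayed called under all 22 settings, with adjusted p of 0.00596 at most. Shunt against control was -0.03 (SE 0.322, adjusted p = 0.965). ITGAV, the alpha subunit it pairs with, averaged 38.7, 45.0 and 48.3 CPM in fetal, control and shunt libraries and was not called in any comparison. Of the 16 epithelial and mesothelial markers on the list 3 were in the table and 1, EPCAM, was tested. Their summed level was 1.11 to 3.28 CPM in fetal, 0.460 to 2.34 in control and 0.337 to 4.99 in shunt libraries, and CLDN4 was at 0 counts in all 12.

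**Figure D3:**
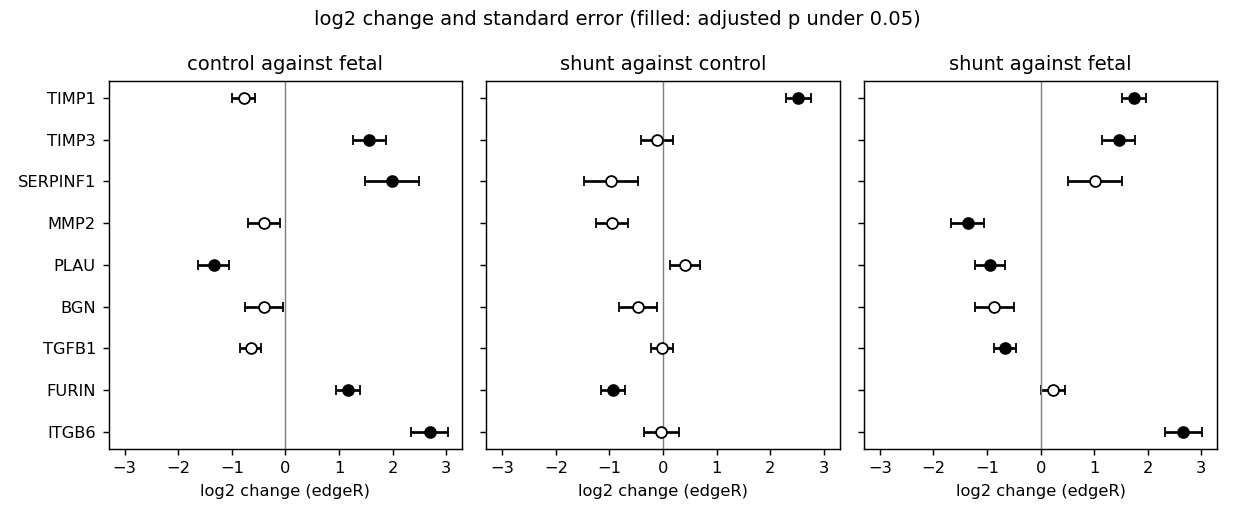
The log2 change of each gene in the 3 comparisons (horizontal axes), with bars for the standard error from edgeR and filled points where the adjusted p was under 0.05. TIMP1 has the largest change from control to shunt, 2.53, and ITGB6 the largest from fetal to control, 2.69.

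Over the 9 genes, 5 were called for control against fetal, 4 higher and 1 lower in controls, where 5.17% of all tested genes were called, 2.66% higher and 2.5% lower. The 2 groups did not overlap for 7 of the 9 (4 higher and 3 lower), against 19.3% of all genes (9.18% higher and 10.2% lower). For shunt against control 2 were called, TIMP1 higher and FURIN lower, against 4% of all genes (2.3% higher and 1.69% lower). The same 2 were the ones without overlap, against 12.1% of all genes (6.06% higher and 6.07% lower). For shunt against fetal 6 were called, 3 in each direction, against 15.7% of all genes (9.16% higher and 6.51% lower), and 7 did not overlap, 4 higher and 3 lower, against 19% of all genes (9.12% higher and 9.89% lower). The median log2 change of the 9 was -0.39, -0.11 and 0.24 in the 3 comparisons, and that of all genes was between -0.01 and 0.01. The comparisons share libraries in pairs, so their results are not independent. The 9 were chosen with results of these data known, so the counts describe them and are no evidence about matrix genes as a class. Raw counts of 41 to 29512 per library stand behind the values.

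By group means, 4 orders were seen. TIMP1 alone had its highest mean in shunt libraries (40.01 ± 9.77 CPM) and its lowest in controls (6.94 ± 1.90 CPM). TIMP3, SERPINF1, FURIN and ITGB6 ran control, shunt, fetal from high to low. In that order the upper step passed for FURIN and the lower step for TIMP3 and ITGB6, while neither passed for SERPINF1. MMP2, BGN and TGFB1 ran fetal, control, shunt, and edgeR called no single step for any of them, while DESeq2 called the upper step for TGFB1 (adjusted p = 0.0252) and the lower step for MMP2 (0.0281). PLAU ran fetal, shunt, control, with the upper step called. Control and shunt means were close for ITGB6 (22.2 and 21.8 CPM), TIMP3 (372 and 345 CPM) and TGFB1 (16.2 and 15.9 CPM). For these genes the order of those groups is not settled.

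Within the groups the genes did not vary as a block. Over the 36 pairs, correlations of the deviations from group means over 12 libraries ran from -0.65 (TIMP3 with TGFB1) to 0.61 (BGN with TGFB1). MMP2 and BGN stood at 0.59 and PLAU and FURIN at -0.64. These are descriptions over libraries that share scaling and groups. Shunt 2 weighs heavily in both BGN pairs. Its log2 deviation was -1.81 for BGN, by far the largest of that gene, beside -0.76 for MMP2 and -0.36 for TGFB1. The correlations were not recomputed without it. Control 3 was the control library nearest to the fetal mean for 6 of the 9 genes: it had the highest control level of TIMP1, PLAU, BGN and TGFB1 and the lowest of TIMP3 and FURIN. Its mitochondrial share, 50.0%, was the highest of the controls. Shunt 2 was the lowest shunt library for SERPINF1, MMP2, BGN and TGFB1.

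The genes whose levels followed each member most closely were sought among 421 other genes with a symbol, by Pearson correlation of log2 CPM over the 12 libraries. Group differences and shared scaling enter these values, so they are descriptions only. For TIMP1 they were C3H12orf29 (r = 0.89) and SLC25A5 (r = 0.88). TIMP3 and ITGB6 had the pyridoxal kinase gene PDXK in common (r = 0.90 and 0.92), with IDH1 (0.91) next to TIMP3 and SPA17 (0.91) next to ITGB6. FURIN ran with the lipase gene LPL (0.90) and the gelsolin gene GSN (0.85), and SERPINF1 with GLRX (0.85) and ALDH1A1 (0.83). MMP2 had SLC39A13 (0.90) and SMAD4 (0.90), PLAU had SPARC (0.86) and TIMELESS (0.83), BGN had CDK1 (0.93), and TGFB1 had PON2 (0.91).

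The other genes of these pathways were taken from lists of which few members carried a name in the table, so a list speaks for those few. Of the other protease inhibitors 1 of 28 was tested, TIMP2, which blocks MMPs and also helps to activate MMP2. It stood at 17.4, 18.7 and 16.6 CPM in fetal, control and shunt libraries, and its log2 changes were 0.11, -0.17 and -0.06 with no call. The SE for shunt against control was 0.201. SPP1, a matrix protein of inflamed tissue also called osteopontin, was at 29.7 CPM in shunt 4 against 1.30 to 2.19 CPM in shunt 1 to shunt 3. Its log2 change for shunt against control was 2.25 (SE 0.948, adjusted p = 0.151), and -0.07 without shunt 4. TIMP1 too was highest in shunt 4, yet it was called without that library (2.36, adjusted p = 0.000323).

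Of 55 other matrix proteases 2 were tested, and MMP14 was called. MMP14, a membrane protease that activates MMP2, averaged 31.6 ± 6.74 CPM (SD, n = 4) before birth, 16.4 ± 2.15 CPM in controls and 12.6 ± 3.27 CPM after shunt surgery. It fell from fetal to control by 0.94 on the log2 scale (SE 0.214, adjusted p = 0.0203) and was lower in shunt than in fetal libraries, with a log2 change of -1.33 (SE 0.217, adjusted p = 0.0026). The first call was lost without fetal 1, fetal 2, control 1, control 2 or control 4 (adjusted p = 0.076, 0.0801, 0.0758, 0.0547 and 0.0774). Shunt against control was -0.38 (SE 0.214, adjusted p = 0.254). In the plasminogen system 2 of 24 other genes were tested and edgeR called 0, with 0, 1 and 1 at an unadjusted p under 0.05 and the same counts by DESeq2. ANXA2, which gathers plasminogen at the cell surface, was at 146 to 167 CPM in shunt against 105 to 121 CPM in control libraries. Those groups did not overlap, but the log2 change of 0.51 (SE 0.154, adjusted p = 0.0646) did not pass, and with library totals it was -0.10. It passed with DESeq2 (adjusted p = 0.00528) and without shunt 3 (adjusted p = 0.0484).

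Among matrix proteins and proteoglycans 5 of 118 were tested, all with a negative change from fetal to control and 1 called, with a median of -1.01. CCN2, connective tissue growth factor and a target of TGF beta, stood at 30.8 ± 16.5 CPM before birth and fell to 2.47 ± 1.07 CPM in controls (log2 change -3.63, SE 0.707, adjusted p = 0.0122). In shunt libraries it was at 7.58 ± 7.63 CPM, with no edgeR call against control (1.64, SE 0.667, adjusted p = 0.132) or against fetal libraries (-1.99, adjusted p = 0.0572). The latter passed with DESeq2 (-2.02, adjusted p = 0.0243), with the filter of 1 CPM (0.0498), with library totals (0.00569) or nuclear totals (0.0278), and without fetal 4 (-2.29, 0.0409) or shunt 3 (-2.94, 0.00714). SPARC, a collagen-binding protein, averaged 1868, 1378 and 1327 CPM in fetal, control and shunt libraries and was not called by edgeR. DESeq2 called it for control against fetal (-0.43, adjusted p = 0.0339) and for shunt against fetal (-0.47, adjusted p = 0.00858), and the latter passed in edgeR without shunt 1 (-0.57, adjusted p = 0.0473). Its control against fetal value also passed without shunt 1 and shunt 2 (adjusted p = 0.0378). DCN, a proteoglycan close to biglycan, averaged 450.4, 405 and 375 CPM and was not called either. SPP1 passed for control against fetal without shunt 4 (-2.67, adjusted p = 0.00314, against 0.152 with it). Of 72 other genes of TGF beta ligands, receptors and regulators 11 were tested. For control against fetal 1 was called, FST, an inhibitor of activins, with -2.98 (SE 0.747, adjusted p = 0.0331) at under 1 CPM. That call was lost without any 1 of the 8 libraries compared (adjusted p = 0.0514 to 0.125). For shunt against fetal 1 was called, SMAD4, the shared mediator of the pathway, at 10.3 ± 3.71 against 18.4 ± 1.94 CPM (log2 -0.82, SE 0.232, adjusted p = 0.0299). It was lost without any single fetal library (adjusted p = 0.0687, 0.0509, 0.0607 and 0.0895), without shunt 1, shunt 2 or both (0.0664, 0.0757 and 0.162), and with the 2 groups fitted alone (0.0693). For shunt against control edgeR called 0 of the 11, with 2 at an unadjusted p under 0.05, and DESeq2 called 1, SMAD4 (adjusted p = 0.0307), which also passed without shunt 4 (-0.99, adjusted p = 0.0121). Of 43 other integrin and adhesion genes 6 were tested and edgeR called 0, with 0, 0 and 1 at an unadjusted p under 0.05 in the 3 comparisons. The last was ILK, a kinase that binds integrins, for shunt against fetal (-0.61, adjusted p = 0.0506), which DESeq2 called (adjusted p = 0.0184) and which passed without shunt 3 (0.0184) or shunt 4 (0.0267).

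Markers of cell types that make or use these proteins are given as summed levels. The 6 tested fibroblast markers of 24 summed to 487 to 635 CPM in fetal, 423 to 493 in control and 297 to 549 in shunt libraries. A pair of them were called once each, CCN2 as above and the growth factor gene FGF7, which was lower in shunt than in control libraries, with a log2 change of -1.28 (SE 0.238, adjusted p = 0.0336). The FGF7 call was lost without fetal 1 or fetal 2 (0.0514 and 0.0515), control 1, control 2 or control 4 (0.0759, 0.1 and 0.12), or shunt 1, shunt 2 or both (0.0583, 0.0716 and 0.0928, the last at -1.21). With the 2 groups fitted alone that call was lost too (0.117). The 10 leukocyte markers in the table summed to 11.1 to 17.0 CPM in fetal, 18.8 to 31.0 in control and 13.035 to 28.5 in shunt libraries. All control sums were above all fetal sums. The largest part was 1 gene, MRC1, at a mean of 8.27, 17.5 and 16.3 CPM in fetal, control and shunt libraries. Of the 8 tested, 4 were higher and 4 lower in control than in fetal libraries. The 5 endothelial markers summed to 110 to 121, 68.0 to 89.0 and 55.0 to 152 CPM, with all controls below all fetal libraries. The largest part was KDR, at a mean of 87.3, 51.8 and 65.7 CPM. Of the 4 tested, 2 were higher and 2 lower in control than in fetal libraries. The 8 adipocyte markers summed to 69.1 to 102, 146 to 505 and 113 to 255 CPM, with fetal libraries lowest. The largest part was LPL, which also marks heart muscle, at a mean of 83.2, 283 and 119 CPM. FABP4 added a mean of 54.0 CPM in shunt libraries. All 6 tested had a positive log2 change from fetal to control, but it was 0.03 for ADIPOQ and 0.11 for PLIN2. The pair of pericyte and smooth muscle markers, CNN1 and RGS4, summed to 18.1 to 34.7, 3.77 to 12.8 and 1.497 to 16.4 CPM, with fetal libraries highest. The summed ranges of control and shunt libraries overlapped for each of these cell type lists, but single markers did not. FGF7, FGF2, TPSB2 and PYGM were lower in every shunt library than in any control, LIPE likewise, and PPARG was higher. Among all tested genes 12.1% had no overlap of these 2 groups, 6.06% higher and 6.07% lower. Called by edgeR in the 3 comparisons were 1, 1 and 2 of 8 tested leukocyte markers, 1, 1 and 0 of 7 cardiomyocyte markers, 1, 1 and 2 of 6 adipocyte markers and 0 of 4 endothelial, 2 pericyte and 1 epithelial markers. The shares called among all tested genes were 5.17%, 4% and 15.7%. With so few markers per list, these counts describe single genes and not cell types. The part of these cells in the changes of the 9 genes was not tested.

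The called markers of other cell types were these. TPSB2, a mast cell tryptase, was at 0.280 to 1.52 CPM in controls and 0.682 to 1.82 CPM in fetal libraries, against 0.137 CPM in shunt 1 and 0 counts in shunt 2 to shunt 4. It passed for shunt against control (adjusted p = 0.0386) and shunt against fetal (adjusted p = 0.00308). The first call was lost in 11 of 21 settings, with adjusted p up to 0.12, among them without any single fetal library, without control 1, control 2 or control 4, and without shunt 1 or shunt 2. It was also lost without both shunt 1 and shunt 2 (-7.43, adjusted p = 0.0601). GNLY, a protein of cytotoxic lymphocytes, averaged 0.0638 CPM in fetal, 0.711 CPM in control and 0.590 CPM in shunt libraries. It passed against fetal libraries in both groups (adjusted p = 0.0417 and 0.0286), calls lost without any single fetal library. The first was also lost without any single control, and the second without shunt 3 (0.0717).

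MB, the myoglobin of heart muscle, rose from fetal to control by 1.05 on the log2 scale (SE 0.240, adjusted p = 0.0218), a call lost without fetal 1, fetal 2 or fetal 4 or without control 1, control 3 or control 4 (adjusted p = 0.0522 to 0.0837). PYGM, the glycogen phosphorylase of muscle, was lower in shunt than in control libraries at -0.96 (SE 0.244, adjusted p = 0.0462), a call lost without any 1 of the fetal or control libraries or without shunt 1, shunt 2 or both (-0.60 without both, adjusted p = 0.183). The PYGM call was also lost with the 2 groups fitted alone (0.129). LPL, the lipoprotein lipase that also marks heart muscle, rose from fetal to control by 1.77 (SE 0.365, adjusted p = 0.0132), a call lost without fetal 2 (0.0527). LIPE, the hormone-sensitive lipase, was lower in shunt than in control libraries at -1.90 (SE 0.496, adjusted p = 0.0487). That call was lost without any single fetal library, without control 1, control 2 or control 4, and without shunt 1, shunt 2 or both (adjusted p up to 0.139). With the 2 groups fitted alone it was lost as well (0.122). FABP4, a fatty acid carrier of fat and capillary cells, was called for shunt against fetal (adjusted p = 0.00816) and stayed so under all 22 settings. Its highest fetal level was 0.923 CPM, while the shunt libraries spread from 3.297 CPM in shunt 4 through 36.2 and 63.1 to 113 CPM in shunt 3. PPARG, a regulator of fat cells, was higher in shunt than in fetal libraries at 1.59 (SE 0.365, adjusted p = 0.0114), and not called without shunt 1 and shunt 2 (1.06, adjusted p = 0.0932).

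**Figure D4:**
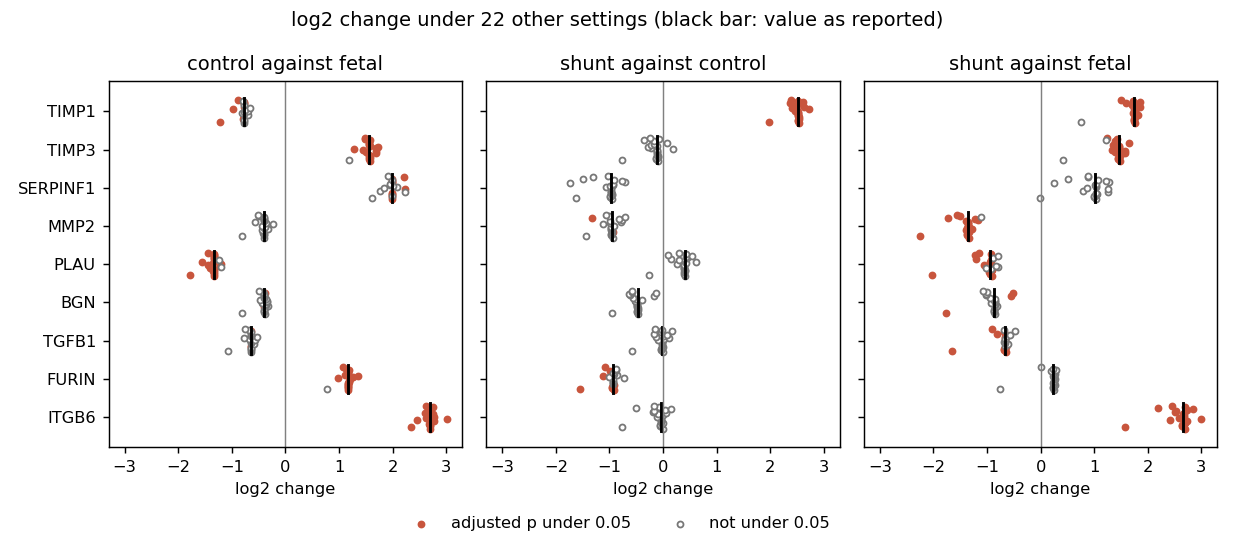
The log2 change of each gene (horizontal axes) under 22 other settings of the analysis, which change the scaling, filter, test, model or libraries used. Filled points had an adjusted p under 0.05 and black bars mark the value as reported. TIMP1 stays between 1.98 and 2.73 for shunt against control, and the isolated low points in the third panel are library totals.

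Scaling bears on every one of these values. When CPM were scaled by library totals alone, the all-gene median log2 change fell to -0.41 between fetal and control libraries. It was -0.59 for shunt against control, and -1.02 when shunt was set against fetal. The counts of genes called higher and lower, 348 and 327, 301 and 221, and 1197 and 851 with TMM, became 99 and 706, 13 and 582, and 137 and 7796. With totals of nuclear genes, chosen after the data were seen, they were 262 and 378, 119 and 379, and 642 and 1672. For shunt against fetal, library totals gave 1.57 for ITGB6, -2.25 for MMP2, -2.03 for PLAU and -1.65 for TGFB1, all still called. With an all-gene median of -1.02 and 7796 of 13065 genes called lower there, the lower calls say little about these genes in particular. For shunt against control FURIN was at -1.55, also called, beside the all-gene median of -0.59. TIMP1 for shunt against control stood at 1.98 beside the all-gene median of -0.59.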

How the data were processed

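Per the labels' protocols, RNA came from a QIAGEN column kit, and QIAseq stranded mRNA libraries were read on a NextSeq as pairs of 75 bases. The authors deposited raw counts per gene for 12 libraries, named total counts per the file headers. The sources used here name no aligner, counting program or genome build, nor whether strand was used, so no coordinates or sequences are shown. Columns were matched to samples by library name.

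In R 4.3.3, genes were filtered with filterByExpr and scaled by TMM, and 1 quasi-likelihood model with 3 groups was fitted to all 12 libraries with edgeR 4.0.16 (glmQLFit, robust). The call threshold was 0.05 after Benjamini-Hochberg adjustment over all 13065 genes. Adjusted p-values are from this test unless named otherwise, and each SE was derived from the log2 change and its F statistic. Log2 CPM used a prior count of 2. DESeq2 1.42.0 was an alternative. The fits were tested on simulated data. The members and the 13 gene lists (473 genes) were chosen with earlier results of these data known. List genes were named by smallest p, up to 3 per list. The value of SPP1 in shunt 4, and DCN, ITGAV, EPCAM, CLDN4, CNN1, RGS4, FGF2, MRC1, KDR, ADIPOQ and PLIN2, were named outside that rule, after values were seen. In the cell type lists called genes were named, and some other genes that the rules would name are not reported here. Alternatives changed scaling, filter, test, groups in the model, replicate block or libraries.

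Within groups, any 2 libraries differed by a chi-square of at least 23.8 per gene, so none was a plain copy of another. That check cannot tell whether libraries came from the same animal. Deviations of libraries with the same replicate number correlated between -0.19 and 0.15, so the numbers were not used as pairs.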

Additional observations from a re-analysis of the deposited data

Results flagged for a closer look

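In 27 sets of 4 libraries (9 genes in 3 groups), the gap between the extreme library and its nearest neighbour on the log2 CPM scale was set against the range of the set. It passed Dixon's critical value for 4 samples in 3 sets, where chance passes about 1 in 20. BGN was far lower in shunt 2 (10.2 CPM) than in the next shunt library (50.9 CPM), a gap of 0.938 of the range. BGN was higher in control 3 (69.9 CPM) than in the next control (57.9 CPM), a gap of 0.870 in a set that otherwise spanned under 2 CPM. TIMP3 was lower in shunt 3 (199 CPM) than in the next shunt library (378 CPM), a gap of 0.874.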

How the results depend on the processing

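With the settings as reported, calls numbered 675 between fetal and control libraries, 522 between control and shunt, and 2048 between fetal and shunt, and other counts follow in that order. Library totals gave 7933 for shunt against fetal. DESeq2's Wald test gave 1248 and 1981 in the first pair of comparisons. Fitting only the 2 groups compared gave 1913, 4 and 1073, and leaving out shunt 1 and shunt 2 gave 1672, 64 and 1314. Leaving out 1 library at a time gave 259 (without fetal 1) to 886 (without shunt 1), 6 (without control 2) to 2169 (without shunt 4) and 957 (without fetal 4) to 2855 (without shunt 4). The replicate numbers showed no clear pairing of the libraries (2, 1 and 0 of 4 correlated best with their own number). With 4 libraries a group, this check cannot exclude a pairing. The replicate block gave 513, 61 and 1444 calls. With the block, FURIN for shunt against control (adjusted p = 0.0734), TGFB1 for shunt against fetal (0.0503), MMP14 (0.053), FST (0.0769) and GNLY (0.0757) for control against fetal, TPSB2 (0.0734) and PYGM (0.0667) for shunt against control and GNLY for shunt against fetal (0.0734) lost their calls, and ILK for shunt against fetal gained one (0.0495).

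The values whose signs turned were not called as reported, and 1 turned value was itself called, ANXA2 for shunt against fetal with library totals (adjusted p = 0.0331). With library totals, these were PLAU (-0.25) and ANXA2 (-0.10) for shunt against control, SERPINF1 (-0.0095), FURIN (-0.76) and ANXA2 (-0.65) for shunt against fetal, and TIMP2 for control against fetal (-0.28). Without shunt 1 and shunt 2, TGFB1 for shunt against control was 0.16. Leaving out 1 library took shunt against control from -0.27 to 0.20 for TIMP3, -0.16 to 0.12 for TGFB1, -0.19 to 0.15 for ITGB6 and -0.073 to 2.89 for SPP1, and shunt against fetal from -0.24 to 0.058 for TIMP2. Of the log2 changes recomputed, 1033 kept direction and side of the threshold, 146 lost a call, 51 gained one and 19 turned sign. Totals of nuclear genes, and all alternatives for the named list genes, were chosen after seeing the data. The cause of these shifts was not tested. Counts were as low as 41 in a library for SERPINF1.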
